A study of Mus musculus with 18 samples.

Results

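The aspartate tRNAs of mouse brain are described here: every entry of the deposited table whose tRNA name, without its trailing number, is Asp. There were 2 such entries of 147, Asp1 and Asp3. Both carry the anticodon GTC, so together they form 1 of the 54 anticodon families of the table (Asp-GTC). Entries of 1 family that share an anticodon and differ in the rest of the molecule are called isodecoders. The samples came from dissected brains of male C57BL/6 mice aged 8 weeks, 3 wild-type (WT) and 3 Ftsj1 knockout (Ftsj1 KO, KO below). Each mouse gave 3 libraries, 18 in all: gel-cut tRNA of the whole tissue (total tRNA), tRNA recovered through ribosome profiling (ribosome-contained tRNA), and shorter tRNA pieces cut from the same gel (fragments). All of them were treated with the demethylase AlkB. The labels name neither the allele nor the littermates, and the libraries hold tRNA only, so neither Ftsj1 mRNA nor brain cell markers could be read from them.

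Asp-GTC tRNA reads both aspartate codons. Its wobble guanosine is replaced in animals by queuosine, a nucleoside whose base is made by bacteria and taken up by the animal. In vertebrates a mannose is added to it in this tRNA. The same change occurs in the tRNAs for asparagine, histidine and tyrosine, without the mannose. Asp-GTC is also the best known target of DNMT2, which methylates a cytosine in the anticodon loop of Asp-GTC, Gly-GCC and Val-AAC and has been reported to shield them from cleavage. FTSJ1, the enzyme lost in the KO mice, methylates riboses in the anticodon loop of other tRNAs, with phenylalanine tRNA as the best known target. The read numbers used here do not report on any of these modifications.

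RefSeq lists 16 genes under the symbol n-TDgtc in assembly GRCm38.p6, on 6 chromosomes, each 72 bases long. The table does not tie Asp1 or Asp3 to any of these genes, and the sequences of the 2 isodecoders are not analysed here. How reads that match both isodecoders were shared is not given in the sources used here, so a read count of the scarcer one is uncertain to that extent.

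Sequencing depth ranged from 1505291 to 2000422 reads for total tRNA, from 406764 to 672127 for ribosome-contained tRNA and from 85323 to 151056 for fragments. A share below is the percentage of all tRNA reads of a library, so it is relative to the other tRNAs, and counting intervals are 95% Wilson intervals that cover counting error only. Nothing in the labels says that mice came from separate litters or were prepared on separate days. The p-values of exact tests measure the spread between these mice. Those of edgeR also draw on the spread of other families or entries. Its fits across library types treat the 2 libraries of a mouse as independent, except where the mouse is a block.

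Asp-GTC was the most abundant of the 54 families in WT total tRNA and in WT ribosomes, and the second among WT fragments. It held 9.25% ± 0.143 of total tRNA reads in WT mice (SD, n = 3). The next family, the lysine tRNA Lys-TTT, held 7.56% ± 0.425, and the 2 did not overlap between mice. In ribosomes Asp-GTC held 8.91% ± 0.857 of reads (SD, n = 3 WT mice), above the tyrosine tRNA Tyr-GTA at 6.51% ± 0.552, again without overlap. Among fragments it held 10.3% ± 0.217 (SD, n = 3 WT mice), between the glutamate tRNA Glu-CTC at 14.2% ± 0.306 and Lys-TTT at 7.75% ± 0.262, and overlapped with neither.

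Nearly all of this was Asp1. In WT total tRNA 140184 to 143742 reads per library were Asp1 and 56 to 79 were Asp3. Asp1 was the first of the 147 entries by mean share in WT total tRNA and in WT ribosomes, and the second among WT fragments. Asp3 stood at place 80 in total tRNA, at place 79 in ribosomes and at place 33 among fragments.

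**Figure D1:**
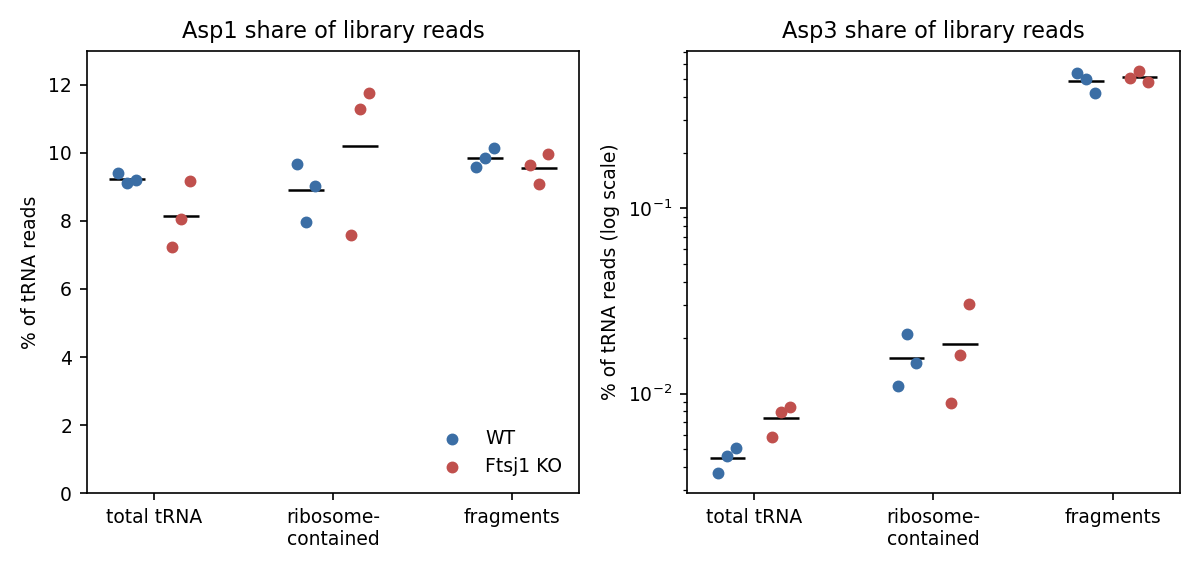
Share of library reads (percent) held by Asp1 (left, linear axis) and Asp3 (right, log axis) in each of the 18 libraries, by library type; blue points are WT and red points Ftsj1 KO mice, in the order of mouse 1 to 3, and black lines are means of 3 mice. Asp1 lies between 7.22% and 11.8% throughout, whereas Asp3 lies at 0.0304% or less in total and ribosome-contained tRNA and between 0.422% and 0.553% among fragments.

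The sharpest difference within aspartate tRNA was between fragments and intact tRNA. Asp3 made up 0.0396%, 0.0506% and 0.0549% of the aspartate reads of total tRNA in WT mice 1, 2 and 3. Among the fragments of the same mice it made up 5.32%, 4.80% and 3.996%. Every fragment library lay far above every total tRNA library.

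KO mice gave the same order of values. Asp3 made up 0.0809%, 0.0979% and 0.0926% of aspartate reads in total tRNA and 4.96%, 5.74% and 4.63% among fragments. The scarcest total tRNA count, 56 reads in WT mouse 1, has a counting interval of 0.00287% to 0.00483% of library reads, while the 613 fragment reads of that mouse have an interval of 0.498% to 0.583%. Counting error is thus small beside the gap. It does not cover how reads matching both isodecoders were shared. That sharing may differ between fragments, which are shorter, and total tRNA, and was not tested.

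Measured as a share of library reads, Asp3 was 145, 108 and 83.3 times higher among fragments than in total tRNA in WT mice 1, 2 and 3, and 86.0, 69.9 and 56.9 times higher in KO mice 1, 2 and 3. The difference had the same direction in 6 of 6 mice (mean log2 ratio 6.45 ± 0.471 SD; exact sign-flip permutation p = 0.03125, the smallest that 6 mice can give, and 0.146 adjusted over 28 tests of shares). The share of entries that were higher among fragments in 6 of 6 mice was 35.2%. Over single entries, edgeR's quasi-likelihood test with Benjamini-Hochberg adjustment gave Asp3 a log2 fold change of 6.56 in WT (adjusted p = 3.2e-19, SE 0.15) and 6.08 in KO mice (adjusted p = 3.6e-19, SE 0.14). Most entries were called, 80.0% of the 105 tested in WT and 86.7% in KO mice. Ordered from the most raised to the most lowered among fragments, Asp3 was the third of 105 in both genotypes. This order says nothing of how far other entries were lowered. All 14 alternative settings called Asp3 in both genotypes.

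**Figure D2:**
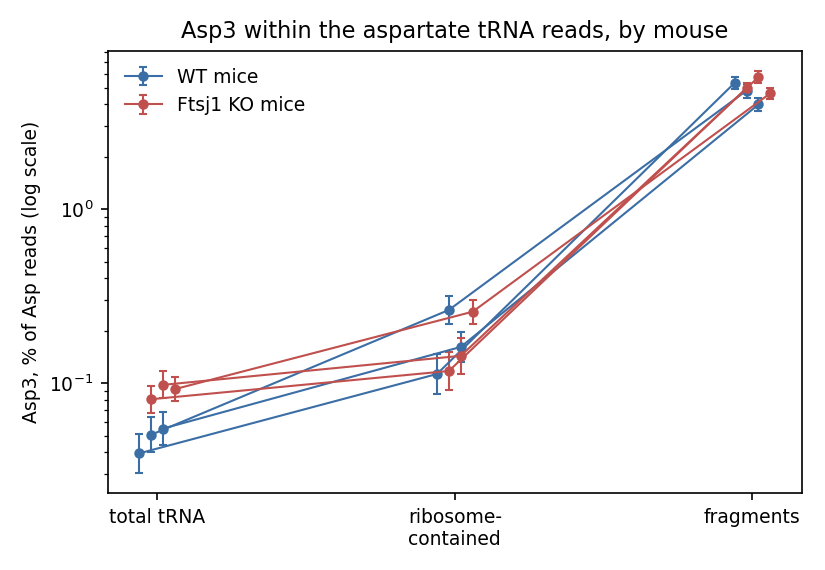
Asp3 as a percentage of all aspartate tRNA reads (log axis) in the 3 library types; each line joins the libraries of 1 mouse (blue WT, red Ftsj1 KO), points are shifted sideways for legibility, and error bars are 95% Wilson intervals for counting error. All 6 lines run from at most 0.0979% in total tRNA to between 3.996% and 5.74% among fragments, and WT and KO mice separate in total tRNA only.

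For Asp1 and for the family as a whole, fragment and total tRNA shares were much closer. Divided by its share of total tRNA, the fragment share of Asp-GTC was 1.08, 1.13 and 1.15 in WT mice 1, 2 and 3 and 1.40, 1.19 and 1.14 in KO mice 1, 2 and 3. It was above 1 in 6 of 6 mice (mean log2 ratio 0.24 ± 0.13 SD; exact sign-flip permutation p = 0.03125, adjusted p = 0.146), as it was for 26.5% of families. For Asp1 alone the mean log2 ratio was 0.16 ± 0.13 (SD, n = 6 mice; exact p = 0.03125, adjusted p = 0.146), a smaller value than for the family, which includes Asp3.

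In edgeR's quasi-likelihood test over families Asp-GTC was higher among fragments, by 0.43 in WT (adjusted p = 5.2e-05, SE 0.08) and 0.49 in KO mice (adjusted p = 1.7e-05, SE 0.08) on the log2 scale. In this test 85.7% of 49 families were called in WT and 83.7% in KO mice, around a median log2 fold change of -0.46 and -0.28. With scaling factors computed within each library type the WT value was 0.13 (adjusted p = 0.109), and the split of calls moved from 18 higher and 24 lower to 12 and 28. For Asp1 in the test over single entries the WT value was -0.10 (adjusted p = 0.289, SE 0.09), and its sign turned under all 3 other scalings, to 0.21, 0.09 and 0.03, the first of which passed as higher (RLE size factors, adjusted p = 0.0151). In KO mice Asp1 was at 0.20 (adjusted p = 0.0432, SE 0.09), a call lost without any 1 of the 6 mice, with values of 0.07 to 0.20.

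Among queuosine tRNAs Asp-GTC was the 1 of 4 that was higher among WT fragments, and the other 3 were lower. Tyr-GTA held 4.32% ± 0.0876 of total tRNA reads and 0.297% ± 0.0190 of fragment reads in WT mice (SD, n = 3; log2 fold change -3.59, adjusted p = 2.4e-16, SE 0.07 in edgeR). Asn-GTT, the asparagine tRNA, held 5.97% ± 0.109 and 0.688% ± 0.0298 (-2.85, adjusted p = 1.2e-15, SE 0.07). His-GTG, the histidine tRNA, held 1.82% ± 0.0385 and 0.409% ± 0.0441 (-1.88, adjusted p = 1.8e-11, SE 0.10). The direction of these 3 was the same in KO mice and under all 14 alternative settings.

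Of the 3 DNMT2 targets Gly-GCC, a glycine tRNA, was also higher among WT fragments, at 6.71% ± 0.258 against 2.47% ± 0.0444 of total tRNA reads (SD, n = 3; log2 fold change 1.71, adjusted p = 1.5e-13, SE 0.06 in edgeR). Val-AAC, a valine tRNA, was lower, at 0.168% ± 0.0136 against 0.523% ± 0.0228 (-1.37, adjusted p = 1.3e-10, SE 0.08). The 3 targets thus lay on both sides. Of 9 families often reported as cleaved in the anticodon loop, Asp-GTC included, 5 were higher and 3 lower among WT fragments, a number of calls near the 85.7% of all 49 families (18 higher, 24 lower). Their median was 0.43 against -0.46 for all 49, and this median is the value of Asp-GTC itself. The members farthest from 0 were Gly-CCC, a glycine tRNA, at 3.18 (SE 0.08), and His-GTG.

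**Figure D3:**
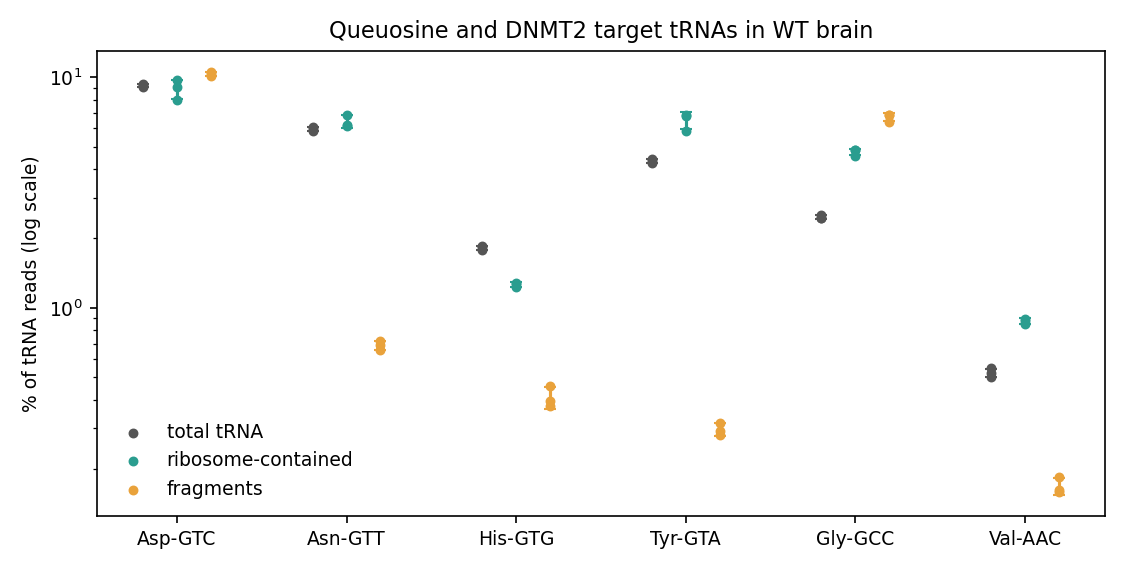
Share of library reads (percent, log axis) of the 4 queuosine families (Asp-GTC, Asn-GTT, His-GTG, Tyr-GTA) and the other 2 DNMT2 targets (Gly-GCC, Val-AAC) in WT brain; points are 3 mice, bars are the mean ± SD, and colours mark the library type. Asp-GTC stays between 8.00% and 10.6% in all 3 types, whereas Tyr-GTA falls from 4.32% in total tRNA to 0.297% among fragments.

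Between ribosomes and total tRNA the share of Asp-GTC lay on both sides of level in WT mice and above it in each KO mouse. Divided by its share of total tRNA, the ribosome share was 1.03, 0.877 and 0.981 in WT mice 1, 2 and 3. In KO mice 1, 2 and 3 it was 1.05, 1.40 and 1.28. Every KO ratio lay above every WT ratio, KO mouse 1 by a small margin over WT mouse 1, as in 17.6% of families (exact p = 0.1, the smallest that 3 mice against 3 can give; adjusted p = 0.233). Over all 6 mice the ratio had no common direction, with 4 of 6 above 1 (mean log2 ratio 0.12 ± 0.25 SD; exact sign-flip p = 0.312, adjusted p = 0.438).

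In the edgeR test over families Asp-GTC differed by -0.10 between ribosomes and total tRNA in WT (adjusted p = 0.520, SE 0.14, 95% interval -0.39 to 0.19) and by 0.35 in KO mice (adjusted p = 0.0240, SE 0.15). Of 51 families 74.5% were called in WT and 80.4% in KO mice. With the mouse as a block the KO value was 0.33 and did not pass (adjusted p = 0.0556). It did not pass in 10 of 14 alternative settings, among them those without WT mouse 1 (0.10), WT mouse 2 (0.17), WT mouse 3 (0.18), KO mouse 2 (0.19) or KO mouse 3 (0.21).

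The scarce isodecoder was higher in ribosomes. Asp3 made up 0.113%, 0.264% and 0.162% of the aspartate reads in the ribosomes of WT mice 1, 2 and 3, and 0.118%, 0.144% and 0.258% in those of KO mice 1, 2 and 3. Each value was above the total tRNA value of the same mouse. The mean log2 odds ratio was 1.34 ± 0.70 (SD, n = 6 mice; exact sign-flip p = 0.03125, adjusted p = 0.146), and 47.5% of entries had a higher library share in the ribosomes of 6 of 6 mice. A higher share of the own family in ribosomes was not particular to Asp3. Over all mice Gln6 made up 0.123% of its family in total tRNA and 0.645% in ribosomes, and Glu5 0.254% and 0.893%. Of the 19 scarce entries described under the other observations, only Cys20 went the other way, at 0.655% and 0.469%.

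The counts behind it were 54 to 113 reads per ribosome library in WT and 60 to 153 in KO mice. In edgeR's test over 118 entries Asp3 was higher in ribosomes by 1.34 in WT (adjusted p = 0.00046, SE 0.32) and by 0.93 in KO mice (adjusted p = 0.0085, SE 0.31), among 80.5% and 66.9% of entries called. The KO call ended without KO mouse 3 (0.46, adjusted p = 0.317). Asp1 was lower in WT ribosomes by 0.50 (adjusted p = 0.0015, SE 0.13) in that test. With library sizes taken as total reads it was at -0.06 (adjusted p = 0.690), and the split of calls moved from 48 higher and 47 lower to 63 and 32. In KO mice Asp1 was at -0.03 (adjusted p = 0.843, SE 0.13), with the opposite sign under each other scaling (0.04, 0.32 and 0.43). It passed as higher with total reads (adjusted p = 0.0234) and with scaling within library type (adjusted p = 0.0052).

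Among the other queuosine tRNAs Tyr-GTA was higher in WT ribosomes by 0.54 (adjusted p = 2.95e-05, SE 0.11 in edgeR) and His-GTG lower by 0.58 on the log2 scale (-0.58, adjusted p = 2.3e-07, SE 0.09). Asn-GTT was at 0.06 (adjusted p = 0.654, SE 0.12). Both other DNMT2 targets were higher in WT ribosomes, Gly-GCC by 0.89 (adjusted p = 1.8e-11, SE 0.10) and Val-AAC by 0.70 (adjusted p = 1.8e-08, SE 0.10). Of the 9 often cleaved families 4 were higher and 3 lower in WT ribosomes, near the 74.5% called of all 51 families. Their median was -0.09 against 0.06 for all families in WT and 0.20 against 0.16 in KO mice. Whether the genotypes differ on this list was not tested.

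The Ftsj1 KO was compared with WT in each library type in turn. In total tRNA Asp-GTC held 9.40%, 9.12% and 9.22% of reads in WT mice 1, 2 and 3 and 7.23%, 8.08% and 9.18% in KO mice 1, 2 and 3. The KO mean was lower and its spread wider, and KO mouse 3 lay within the WT range. The shares were 9.25% ± 0.143 and 8.16% ± 0.980 (± SD of 3 mice a group; two-sided exact p = 0.2, adjusted p = 0.329).

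In edgeR's test over families the log2 fold change was -0.21 (SE 0.09, 95% interval -0.40 to -0.03, adjusted p = 0.141), where 8.16% of 49 families were called. Without KO mouse 3 it was -0.32 and passed (adjusted p = 0.0082). In the test over single entries Asp1 was at -0.28 (adjusted p = 0.0083, SE 0.09), where 7.92% of 101 entries were called lower. That call was lost in 8 of 14 alternative settings, among them without WT mouse 1 (-0.28, adjusted p = 0.127), WT mouse 2 (-0.30, 0.0954), KO mouse 1 (-0.22, 0.0856) or KO mouse 2 (-0.26, 0.185), and with total reads as library sizes (-0.18, 0.123), which moved the split of calls from 10 higher and 8 lower to 17 and 2. The exact test of its share gave p = 0.2 (adjusted p = 0.329).

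Asp3 went the other way in total tRNA. Libraries of WT mice 1, 2 and 3 held 56, 71 and 79 reads of it, and those of KO mice 1, 2 and 3 held 117, 120 and 158. WT libraries averaged 0.00447% ± 0.000685 of reads, against 0.00742% ± 0.00139 for KO libraries (± SD of 3 mice a group; two-sided exact p = 0.1, adjusted p = 0.233). Every KO library lay above every WT library, as in 25.7% of the 101 entries tested.

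Within aspartate tRNA the share of Asp3 in total tRNA was 1.87 times higher in KO mice, at 0.0905% ± 0.00866 against 0.0484% ± 0.00793 of aspartate reads (± SD of 3 mice a group; two-sided exact p = 0.1, adjusted p = 0.233), again with no overlap. In edgeR's test the log2 fold change was 0.62 (adjusted p = 0.0482, SE 0.24), where 9.9% of entries were called higher. The call lay just under the threshold and was lost in 9 of 14 alternative settings, among them without WT mouse 1 (0.50, adjusted p = 0.215), WT mouse 2 (0.64, 0.184), WT mouse 3 (0.71, 0.0917), KO mouse 2 (0.59, 0.231) or KO mouse 3 (0.51, 0.185). The direction was the same in all 14.

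In ribosomes the KO mice were spread widely. Asp-GTC held 9.70%, 8.00% and 9.04% of reads in WT mice 1, 2 and 3 and 7.59%, 11.3% and 11.8% in KO mice 1, 2 and 3. KO mouse 1 lay below all WT mice and the other 2 above them. The means were 8.91% ± 0.857 and 10.2% ± 2.29 (± SD of 3 mice a group; two-sided exact p = 0.4, adjusted p = 0.509). The log2 fold change was 0.20 (SE 0.18, 95% interval -0.20 to 0.61, adjusted p = 0.471 in edgeR, with 22.4% of 49 families called), and without KO mouse 1 it was 0.39 and passed (adjusted p = 0.0044).

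Neither isodecoder passed between KO and WT ribosomes. Asp1 was at 0.23 (adjusted p = 0.489, SE 0.18 in edgeR, with 3.88% of 103 entries called), and at 0.47 without KO mouse 1 (adjusted p = 0.0095). Asp3 was at 0.28 (adjusted p = 0.679, SE 0.34), with the sign turned without KO mouse 3 (-0.21). It held 0.179% ± 0.0769 of aspartate reads in WT and 0.173% ± 0.0745 in KO ribosomes (± SD of 3 mice a group; two-sided exact p = 0.8, adjusted p = 0.8), and the groups overlapped.

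Among fragments neither isodecoder differed beyond the spread between mice. Asp-GTC held 10.1%, 10.3% and 10.6% of fragment reads in WT mice 1, 2 and 3 and 10.1%, 9.63% and 10.4% in KO mice 1, 2 and 3, overlapping (exact permutation p = 0.5, adjusted p = 0.538). Its log2 fold change was -0.04 (adjusted p = 0.705, SE 0.06 in edgeR, 95% interval -0.16 to 0.08), in a test that called 26.1% of 46 families. Asp1 was at -0.05 (SE 0.06, 95% interval -0.17 to 0.07) and Asp3 at 0.07 (SE 0.10, 95% interval -0.14 to 0.29), with adjusted p = 0.647 and 0.701 in edgeR's test over 81 entries, of which 12.3% were called. Asp3 held 4.71% ± 0.667 of aspartate fragment reads in WT and 5.11% ± 0.568 in KO mice (± SD of 3 mice a group; two-sided exact p = 0.5, adjusted p = 0.538).

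**Figure D4:**
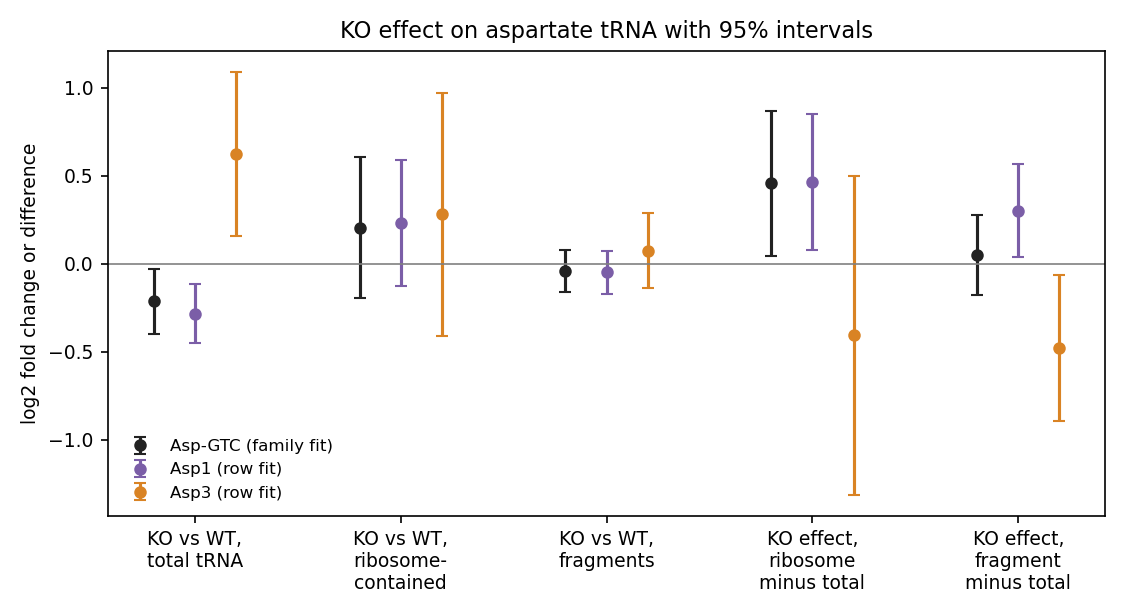
Log2 fold change of KO against WT in each library type, and the difference of that KO effect between library types, for the Asp-GTC family (black, test over families) and for Asp1 (violet) and Asp3 (orange) in the test over single entries; bars are 95% intervals of edgeR's fit before adjustment. Asp1 lies at -0.28 and Asp3 at 0.62 in total tRNA, and intervals of all 3 include 0 in ribosomes and among fragments.

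Whether the KO effect differed between library types was tested as an interaction in edgeR. For Asp-GTC the KO effect was higher in ribosomes than in total tRNA by 0.46 on the log2 scale (SE 0.20, 95% interval 0.05 to 0.87), which did not pass after adjustment (adjusted p = 0.183). None of 51 families passed (0.0%). Without adjustment 11 had a p under 0.05, and after adjustment DESeq2 had 2 lower and limma-voom 2 higher families. Other scalings gave 7 lower (RLE), 4 higher and 7 lower (total reads) and 4 higher and 6 lower (within library type), and a minimum count of 50 gave 8 lower. Asp-GTC passed without KO mouse 1 (0.44, adjusted p = 0.0394).

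For Asp1 the difference was 0.46 (adjusted p = 0.142, SE 0.19, with 5.93% of 118 entries called). It passed with the mouse as a block (0.46, adjusted p = 0.0255) and without KO mouse 1 (0.74, adjusted p = 0.0016). For Asp3 it was -0.41 (adjusted p = 0.626, SE 0.44).

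For fragments against total tRNA the difference in KO effect on Asp-GTC was 0.05 (adjusted p = 0.743, SE 0.11, 95% interval -0.18 to 0.28), where 32.7% of 49 families were called around a median of -0.19. The difference was 0.30 for Asp1 (SE 0.13) and -0.48 for Asp3 (SE 0.20), neither past the threshold (adjusted p = 0.145 for both, with 8.57% of 105 entries called). The Asp3 difference passed without WT mouse 3 (-0.69, adjusted p = 0.0314), without KO mouse 1 (-0.67, 0.0442) and with total reads as library sizes (-0.64, 0.0441). The odds of Asp3 among aspartate reads rose by a mean log2 of 6.68 from total tRNA to fragments in WT and 5.89 in KO mice, and every KO value lay below every WT value (exact p = 0.1, adjusted p = 0.233). Among 58 entries of families with more than 1 entry, 10.3% had all KO values below WT. From total tRNA to ribosomes the mean rise was 1.82 in WT and 0.86 in KO mice. There too every KO value lay below every WT value (exact p = 0.1, adjusted p = 0.233), as in 14.6% of 96 entries. Both rises start from total tRNA, where every KO share of Asp3 lay above every WT share. Within ribosomes and within fragments the shares overlapped. The smaller rise in KO mice was thus not particular to fragments.

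The other tRNAs of the same classes are set here against all families, of which 8.16% were called between KO and WT in total tRNA, 22.4% in ribosomes and 26.1% among fragments. Of the 4 queuosine families none passed in total tRNA, 1 rose in ribosomes (His-GTG 0.27, adjusted p = 0.0247, SE 0.07 in edgeR) and 1 rose among fragments (Asn-GTT 0.32, adjusted p = 0.0092, SE 0.10). Their median log2 fold changes were -0.07, 0.13 and -0.10, against 0.03, 0.05 and -0.04 for all families tested. Of the 3 DNMT2 targets none passed in any library type, and Gly-GCC and Val-AAC lay between -0.11 and 0.13. Of the 9 often cleaved families none passed in total tRNA or among fragments, and in ribosomes His-GTG rose and the lysine tRNA Lys-CTT fell (-0.31, adjusted p = 0.0184).

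Asp-GTC varied more between KO mice than most families did in total tRNA and in ribosomes. Its coefficient of variation in total tRNA was 1.54% over WT mice and 12.01% over KO mice, against medians of 3.47% and 6.18% over the 43 families with a mean of at least 100 reads in each library type. In ribosomes it was 9.62% over WT and 22.4% over KO mice, against medians of 5.70% and 9.48%. It ranked second of 43 in KO total tRNA and second in KO ribosomes. KO mouse 1 had the lowest share of Asp-GTC in both library types. Among fragments the value was 4.07% over KO mice, equal to the median family, and 2.10% over WT mice.

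By distance over the 18 libraries, the families nearest to Asp-GTC were Leu-CAA, a leucine tRNA, Ile-AAT, an isoleucine tRNA, and Thr-AGT, a threonine tRNA. After each family's mean was subtracted, their log2 shares differed from those of Asp-GTC by a root mean square of 0.28, 0.29 and 0.31, the smallest of 42 families compared. Their mean shares over the 6 mice were 0.467%, 3.17% and 3.09% of total tRNA reads, and 0.409%, 3.26% and 3.34% of fragment reads. A small distance does not mean that a family rose and fell with Asp-GTC. In KO ribosomes Ile-AAT was highest in mouse 1, where Asp-GTC was lowest. The mean of Leu-CAA was lower among fragments than in total tRNA, unlike Asp-GTC, and those of Ile-AAT and Thr-AGT were higher. The libraries of 1 type share depth and preparation, so this likeness is a description only.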

How the data were processed

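The authors deposited 1 table of whole-number read counts (147 tRNA entries, 18 library columns), which carries no normalization; per the file headers these are numbers of sequence reads. Per the labels' protocols, tRNA or fragments were cut from gels, treated with AlkB, ligated to a 3′ adaptor and sequenced on a MiSeq. The submitters' processing notes name Bowtie2. For its settings, the tRNA reference, the build and how reads matching more than 1 tRNA were assigned, nothing is given in the sources used here. No molecular identifiers are mentioned, so counting intervals cover counting error only. One ribosome-contained column is headed K3 and was taken as KO mouse 3.

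These counts went into edgeR's quasi-likelihood test (edgeR 4.0.16, R 4.3.3), once summed to anticodon families and once as single entries. Low entries were removed by filterByExpr (minimum count 10), libraries were scaled by TMM, and p-values were adjusted by Benjamini-Hochberg over everything tested, with a threshold of 0.05. Both isodecoders passed the filter in every fit. KO and WT were compared within each library type over 6 libraries, and library types and interactions over 12 libraries in 4 groups. The mouse was a block only among the alternatives. A standard error is the absolute log2 fold change divided by the square root of F. The family and entry fits have different scaling factors, so their values are not on 1 scale. For shares, exact permutation tests over mice were used, two-sided (SciPy 1.17.1), adjusted over 28 tests. Tests of library shares between genotypes, of single isodecoders' library shares between library types, and 8 on ratios between library types by genotype were added to the planned ones after values were seen. Python 3.11.15, pandas 2.3.3 and matplotlib 3.10.9 were used.

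Library types of 1 mouse are paired by the labels. Deviations from group means of the 2 libraries of a mouse correlated between -0.38 and 0.62 for ribosomes with total tRNA and between -0.29 and 0.29 for fragments with total tRNA. Equal mouse numbers across genotypes are only numbers. All 18 pairs of replicate libraries differed beyond sampling noise (chi-square per degree of freedom of at least 5.87).

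Alternatives were DESeq2 1.42.0, limma-voom (limma 3.58.1), other scalings, no filter or a minimum count of 50, a replicate block and leaving out each mouse. The fits were checked on simulated tables with known changes. Over entries, 1.5-fold changes were recovered least often for the difference in KO effect between ribosomes and total tRNA (33.75%). For KO against WT in ribosomes the value was 47.5%. For 2-fold changes these were 93.75% and 97.5%. A missing call in these fits is thus weak evidence of no change of 1.5-fold. These values pool all changed entries, and recovery was not measured for Asp1 or Asp3 alone. Over KO ribosomes their shares had coefficients of variation of 22.4% and 58.9%. Whether the values hold for entries that vary this much was not tested.

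The text names both isodecoders, the Asp-GTC family, its neighbours by WT level, the queuosine and DNMT2 families, the 2 often cleaved families farthest from 0, and the 3 families most like Asp-GTC (log2 share with 0.5 reads added). The members and lists were chosen with earlier results of these data known. RefSeq gene names were counted by symbol, and no coordinates are given because the build of the counts is not known.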

Additional observations from a re-analysis of the deposited data

Results flagged for a closer look

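For 2 queuosine tRNAs the KO effect among fragments differed from that in total tRNA in edgeR's interaction test, whereas for Asp-GTC it did not pass (0.05, SE 0.11, adjusted p = 0.743). Asn-GTT had a higher KO effect among fragments, a log2 difference of 0.29 (adjusted p = 0.0271, SE 0.09), and was called in 10 of 14 alternative settings. Tyr-GTA had a lower one, by a difference of -0.41 (adjusted p = 0.0058, SE 0.10), and was called in 13 of 14. Calls were common in this test, at 16 of 49 families (32.7%), around a median difference of -0.19.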

How the results depend on the processing

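The 14 alternatives to each edgeR fit left the direction and the call unchanged for Asp3 between fragments and total tRNA in both genotypes, for Asp3 between WT ribosomes and total tRNA, and for Asp-GTC between KO fragments and total tRNA. All values are log2 unless stated. For ribosomes against total tRNA in KO mice, Asp-GTC did not pass with DESeq2 (0.24), RLE size factors (0.24), no filter (0.28), a minimum count of 50 (0.23) or the replicate block (0.33), and Asp1 turned positive with DESeq2 (0.0353), RLE (0.0352), total reads (0.32), scaling within library type (0.43) and a minimum count of 50 (0.14), passing with total reads and scaling within type. In WT, Asp1 did not pass with total reads (-0.0552), scaling within type (-0.15) or a minimum count of 50 (-0.30). For fragments against total tRNA, Asp-GTC in WT did not pass with scaling within type (0.13). Asp1 in WT turned positive with DESeq2 (0.21), RLE (0.21), total reads (0.0929), scaling within type (0.0311) and a minimum count of 50 (0.0275), passing as higher with DESeq2 and RLE and as lower with no filter (-0.28), where in KO mice it did not pass (0.16). The share of Asp-GTC in ribosomes against total tRNA was -0.058 in WT mice alone.

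For KO against WT in total tRNA, Asp1 did not pass with DESeq2 (-0.29), total reads (-0.18), upper quartile factors (-0.17) or a minimum count of 50 (-0.26), nor Asp3 with limma-voom (0.60), RLE (0.62), no filter (0.58) or a minimum count of 50 (0.65). Among fragments Asp-GTC was at 0.011 with no filter and Asp3 at -0.16 with upper quartile factors. The difference in KO effect passed for Asp1 between ribosomes and total tRNA with scaling within type (0.58), no filter (0.56) and the replicate block (0.46), and for Asp3 between fragments and total tRNA with total reads (-0.64). The mouse as a replicate block changed no other call. Equal mouse numbers across genotypes pair nothing (correlations -0.43 to 0.13). The cause of these changes was not tested.

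Leaving out 1 mouse gave these ranges. KO against WT for Asp-GTC, -0.32 to -0.14 in total tRNA, 0.083 to 0.39 in ribosomes and -0.0854 to 0.0057 among fragments; for Asp1, -0.38 to -0.22 in total tRNA and 0.10 to 0.47 in ribosomes; for Asp3, 0.50 to 0.76, -0.21 to 0.69 and -0.0096 to 0.14, and -0.049 to 0.036 percentage points of aspartate reads in ribosomes. KO ribosomes against total tRNA, 0.10 to 0.38 for Asp-GTC, -0.13 to 0.14 for Asp1 and 0.46 to 1.23 for Asp3. KO fragments against total tRNA, 0.0655 to 0.20 for Asp1. The difference in KO effect ranged for ribosomes from 0.29 to 0.44 (Asp-GTC) and 0.41 to 0.74 (Asp1), and for fragments from -0.0519 to 0.12 (Asp-GTC) and -0.69 to -0.34 (Asp3).

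Counts of families called between KO and WT ranged over the alternatives from 1 to 9 (4 as reported) in total tRNA, 3 to 22 (11) in ribosomes and 7 to 16 (12) among fragments, and counts of entries from 4 to 25 (18), 3 to 24 (4) and 8 to 19 (10). Counts of differences in KO effect ranged from 0 to 13 (0) and 8 to 15 (16) for families and from 0 to 17 (7) and 8 to 15 (9) for entries. Depth limits Asp3, with 56 to 79 reads per WT total tRNA library and 54 to 113 per WT ribosome library.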

Other observations

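Other entries too were scarce in intact tRNA and held more of the fragment reads. Glu3, an entry of the Glu-CTC family, averaged 0.00109% of WT total tRNA reads and 0.426% of WT fragment reads. It had 119 reads in the 6 total tRNA libraries together, so its fold change is not given. Gly13, an entry of Gly-TCC, averaged 0.00446% and 0.304% (log2 fold change 5.89, SE 0.17 in edgeR). For Asp3 the values were 0.00447% and 0.486% (6.56, SE 0.15). In KO mice the log2 fold changes of Asp3 and Gly13 were 6.08 and 5.25. Glu3 and Gly13 were picked after their values were seen. A further entry, Gly11 of Gly-GCC, had 46 reads in the 6 total tRNA libraries together and entered the test through its fragment reads, so its fold change is not given.

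A wider description used the 19 entries, from 12 families, that held under 1% of their own family's reads in total tRNA and had at least 100 reads there over all mice, limits chosen after values were seen. In 9 of the 19 the share of the family was higher among fragments, and the median ratio of the fragment share to that in total tRNA was 0.574. The ratio for Asp3 was 70.1, second to that of Glu3, which rests on 119 total tRNA reads and is not given. In ribosomes most of the 19, Asp3 included, held a larger share of their family than in total tRNA.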
